A study of Mus musculus with 12 samples.

Results

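Lungs of FIZZ2 knockout mice and of wild type mice were compared without bleomycin injury, on 6 of the study's 12 arrays: 3 knockout and 3 wild type arrays of saline-injected mice. Every gene with a probe set of its own was a member of the comparison, 18194 genes in all, each read from the probe set that was brightest on average over the 12 arrays. Both groups were C57BL/6 mice by their labels, with no substrain named. They received saline through the trachea and were perfused with PBS, and the lungs were taken on day 21. The remaining 6 arrays, 3 of each genotype, came from mice given bleomycin in place of saline and gave a second reading of the genotype difference. Total RNA of the lung was extracted with Trizol, labelled with biotin and hybridised to Affymetrix arrays. The labels do not say that the 3 replicates of a group were separate animals, so the p-values measure only the spread between these samples. They do not describe the targeted allele, its origin or its backcrossing either.

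FIZZ2, also called RELM-beta, is a small secreted protein of the resistin family, encoded by Retnlb. Resistin-like proteins are made mainly by epithelium and macrophages and are induced by type 2 cytokines such as IL-4 and IL-13. In mouse tissues RELM-beta is best known from goblet cells of the gut, and in lung it is studied in allergic inflammation and fibrosis. A comparison of uninjured lungs shows what already differs between the genotypes before any injury response.

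All values are log2 signals as the authors deposited them, so a difference of 1 is a 2-fold difference. The median log2 signal of a saline array was 5.58 to 5.68. Across probe sets, saline arrays of the same genotype correlated at 0.988 to 0.997 (6 pairs) and those of different genotypes at 0.987 to 0.996 (9 pairs), so the ranges overlapped. Defining genes of lung cell types were bright on every saline array (8.15 to 14.24 over Sftpc, Sftpb, Scgb1a1, Ager, Foxj1 and Cdh5) and none of these 6 passed the test. Wild type replicate 2 stood apart in 2 signs of RNA quality: its 18S ribosomal signal was 12.55, against 8.88 to 11.68 on the other saline arrays, and its Gapdh signal was higher at the 3 prime than at the 5 prime end by 1.42, against 0.353 to 0.802. Results that this array decides are given without it below. Whole lung mixes many cell types, so fewer cells of a type and less RNA per cell cannot be told apart.

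Few genes differed between the genotypes after saline. Calls were made with limma's moderated test where the Benjamini-Hochberg adjusted p, taken over all genes, was below 0.05, and 89 of 18194 genes were called (0.489%). Of these, 54 were higher in knockout lungs (0.297%) and 35 lower (0.192%), and 24 differed at least 2-fold. At an unadjusted p under 0.05 there were 1846 genes, 844 higher and 1002 lower. Over all 18194 genes, whatever the p, 7946 differences were positive and 10248 negative. In no called gene did the 3 knockout values overlap the 3 wild type values (of all genes, 7.28% had all knockout saline values higher and 9.45% all lower), and the median difference over all genes was -0.02. The count rested on all 6 arrays: without wild type replicates 1, 2 or 3 it was 56, 50 or 58, and without knockout replicates 1, 2 or 3 it was 41, 37 or 24. A fit on the 6 saline arrays alone called 37 genes, of which 33 were among the 89. With limma's array weights, which favour arrays close to the fitted mean of their group, 1105 genes were called, including all 89. Wild type replicate 1 then weighed 5.13, against 0.339 and 0.649 for wild type replicates 2 and 3. The sign of each of the 89 was the same in every alternative in which it was tested. Genes around Retnlb and in a list of strain-linked genes made up the 5 largest falls; neutrophil and immediate early genes held most of the largest rises.

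Retnlb itself gave no check of the genotype. Its log2 signal was 3.65, 3.84 and 3.57 in wild type lungs and 3.69, 3.54 and 3.83 in knockout lungs, well under the array median in both. The values overlapped, with a difference of 0.0017 (SE 0.11, limma adjusted p = 0.997). A probe set outside the deleted part would not register a deletion, and the labels do not say which part was deleted. Retnla, which encodes the related FIZZ1 of alternatively activated macrophages, is the next measured gene beside Retnlb. It lay at 10.27, 10.13 and 10.29 in wild type and at 10.12, 9.60 and 9.94 in knockout lungs. All 3 knockout values were lower, but the difference of -0.34 ± 0.22 (SE) did not pass (adjusted p = 0.648), where after bleomycin it was -2.67 ± 0.22 (adjusted p = 2.13e-05). Retn, the resistin gene, which fat cells express in mice, overlapped between genotypes (0.54 ± 0.48, adjusted p = 0.746). Retnlg was not analysed here.

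Several of the largest differences lay on the chromosome around Retnlb. Within 10 Mb of Retnlb on chromosome 16, 7 of 88 measured genes were called (7.95%, against 0.489% of all genes), 5 lower and 2 higher. The count was 4 or 5 when any one array was left out. Within 5 Mb it was 4 of 54 (7.41%), all lower. Beyond 10 Mb on the chromosome 5 of 505 were called (0.99%): Timmdc1, Stfa2l1 and Mefv higher, B4galt4 and Arhgap31 lower. Counted in measured genes from Retnlb, Mefv lay at -383 and Stfa2l1 at -74. Timmdc1, B4galt4 and Arhgap31 lay nearer to the window, so its edge does not mark the end of the differing genes. Upk1b, a uroplakin gene beside B4galt4 that was named after its values were seen, was read as -0.64 (limma adjusted p = 0.145) from its brightest probe set and not called, but its 4 probe sets disagreed in size, at -0.64, -0.64, -1.33 and -2.09. The last 2 passed when probe sets were tested singly (adjusted p = 0.00412 and 0.00203). The immediate neighbours were not among the calls. Trat1, Morc1, Dzip3 and Cip2a had differences of -0.01, -0.02, -0.29 and 0.03, and the nearest called genes were the 9th measured gene on one side, Plcxd2, and the 15th on the other, Dubr.

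**Figure D1:**
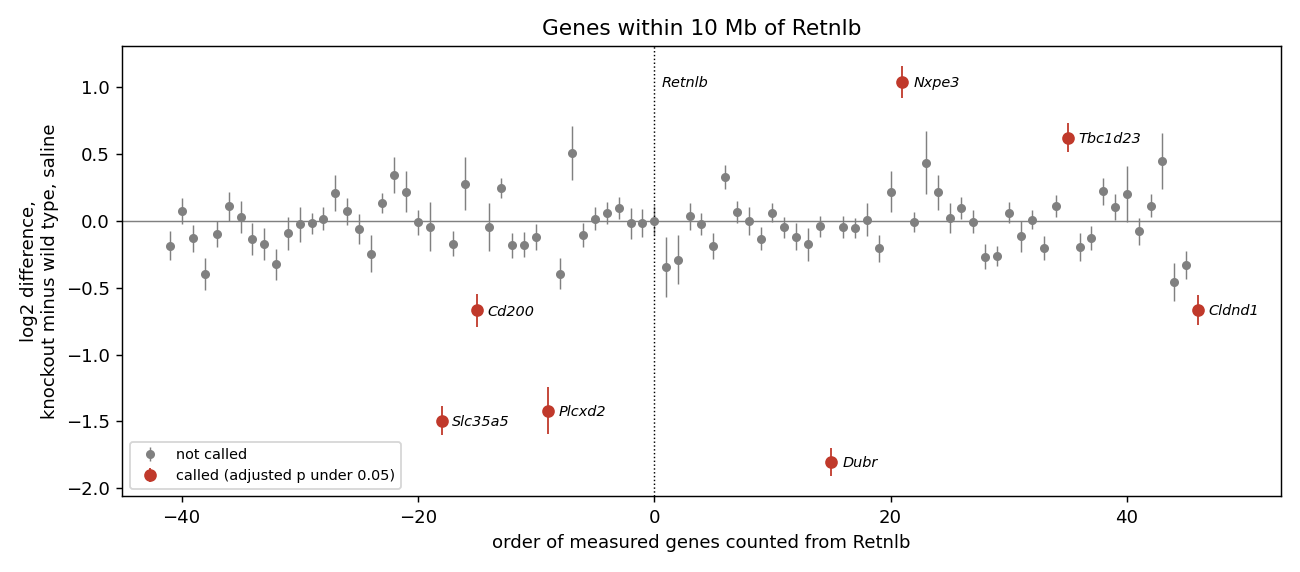
Log2 difference between knockout and wild type saline lungs (vertical axis, bars are the SE of the limma fit) for the 88 measured genes within 10 Mb of Retnlb, in chromosomal order counted from Retnlb (horizontal axis). The 7 called genes (red) lie between -1.80 for Dubr and 1.04 for Nxpe3. Of the 88 genes, called ones included, 20 had all knockout values below all wild type values and 9 had all above. Over all genes these shares were 9.45% and 7.28%.

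Dubr, a long noncoding RNA, had the largest fall among genes as read from their brightest probe sets. Its log2 signal was 9.37, 9.18 and 9.18 in wild type lungs and 7.56, 7.26 and 7.50 in knockout lungs, a 3.49-fold lower level (-1.80 ± 0.10, SE, n = 3 per group, limma adjusted p = 5.28e-06). Slc35a5, a member of the nucleotide sugar transporter family, was at 9.72, 9.49 and 9.60 in wild type and 8.08, 8.09 and 8.15 in knockout lungs (-1.49 ± 0.11, adjusted p = 2.62e-05). The gap between genotypes was many times the spread within either, and all 5 probe sets of Slc35a5 had a negative difference (-1.49 to -0.30). Plcxd2, a phospholipase C family gene, was at 6.86, 6.92 and 6.42 against 5.48, 5.00 and 5.46 (-1.42 ± 0.17, adjusted p = 0.00288). Nxpe3, a neurexophilin family gene, went the other way, from 7.96, 8.08 and 7.88 in wild type to between 8.91 and 9.14 on all 3 knockout arrays (1.04 ± 0.12, adjusted p = 0.00132). These 4 calls were kept whichever of the 6 arrays was left out.

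The 3 smaller calls of the region depended on single arrays. Cd200, a surface glycoprotein that restrains myeloid cells through its receptor, differed by -0.67 ± 0.12 (adjusted p = 0.0332) and lost its call whichever of the 6 arrays was left out (adjusted p 0.0501 to 0.128). The same was true of Cldnd1, a claudin-domain protein (-0.66 ± 0.11, adjusted p = 0.0196, and 0.0506 to 0.1 without 1 array). Tbc1d23, a TBC domain family gene, differed by 0.62 ± 0.11 (adjusted p = 0.0258). It kept its call only without wild type replicate 3 (adjusted p 0.0509 to 0.113 without another array). The fit gives each gene the same SE after saline and after bleomycin, so calls under the 2 treatments are not independent. All 7 genes were called in the same direction on the bleomycin arrays, where 7.52% of all genes were called higher and 7.89% lower. The difference there was -1.30 for Dubr, -1.46 for Slc35a5, -1.68 for Plcxd2, -0.45 for Cd200, -0.58 for Cldnd1, 0.42 for Tbc1d23 and 1.47 for Nxpe3.

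Strain-linked genes away from Retnlb also differed. A list of genes known or thought to vary between C57BL/6 substrains or to travel with strain background had 13 measured members. Of these, 2 were higher, 2 lower and 9 did not pass (30.8% called, against 0.489% of all genes). The list was chosen with earlier results of these data known, so this share is only a description. Mid1, a microtubule-associated ubiquitin ligase gene at the pseudoautosomal boundary of the mouse X chromosome, had the largest difference of all genes. It was at 5.59, 6.03 and 5.75 in wild type and at 7.94, 8.77 and 9.39 in knockout lungs, 7.52-fold higher (2.91 ± 0.30, limma adjusted p = 0.000761). The genotypes were far apart, with a wider spread in the knockout lungs (SD 0.73, against 0.22). Its remaining probe sets were dim, at means of 3.47 and 3.36, and differed by 0.08 and -0.09.

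Nnt encodes the mitochondrial nicotinamide nucleotide transhydrogenase, and part of it is deleted in the C57BL/6J substrain. Its log2 signal was 9.30, 9.37 and 9.06 in wild type and 7.52, 7.66 and 7.77 in knockout lungs, 3.01-fold lower (-1.59 ± 0.12, adjusted p = 4.17e-05). A second probe set was lower by a similar amount (-1.29) and the remaining one was dim. Wdfy1, an endosomal adaptor of Toll-like receptor signalling, was at 8.79, 8.95 and 8.57 against 7.36, 6.99 and 6.76, 3.32-fold lower (-1.73 ± 0.14, adjusted p = 6.67e-05). Of its 5 probe sets, 3 had differences of -2.02 to -1.73 and the dimmer ones -0.30 and -0.29. Lrmda, a melanocyte differentiation gene, was higher, at 5.49, 5.73 and 5.42 against 6.77, 6.99 and 7.14 (1.42 ± 0.12, adjusted p = 6.67e-05).

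These 4 genes were called whichever array was left out and in each of the alternative fits, and all were called in the same direction after bleomycin (2.25 for Mid1, -1.10 for Nnt, -1.43 for Wdfy1 and 1.77 for Lrmda). The members that did not pass included Dock2 (0.39, adjusted p = 0.152), Cyfip2 (0.29, 0.476), Nlrp12 (0.17, 0.637), Mmrn1 (0.27, 0.653), Crb1 (-0.13, 0.712) and Ide (-0.08, 0.827). Gulo, Nap1l5 and Tyr had differences of 0.12, 0.17 and -0.10. The expression differences of these genes come with the genotype labels. Which of them belong to the targeted allele and which to strain background cannot be told apart. The sexes did not split the groups: Xist was between 11.24 and 12.02 on all 6 saline arrays, the Y-linked Kdm5d, Eif2s3y and Uty were between 2.88 and 3.74, and no sex-linked gene passed.

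**Figure D2:**
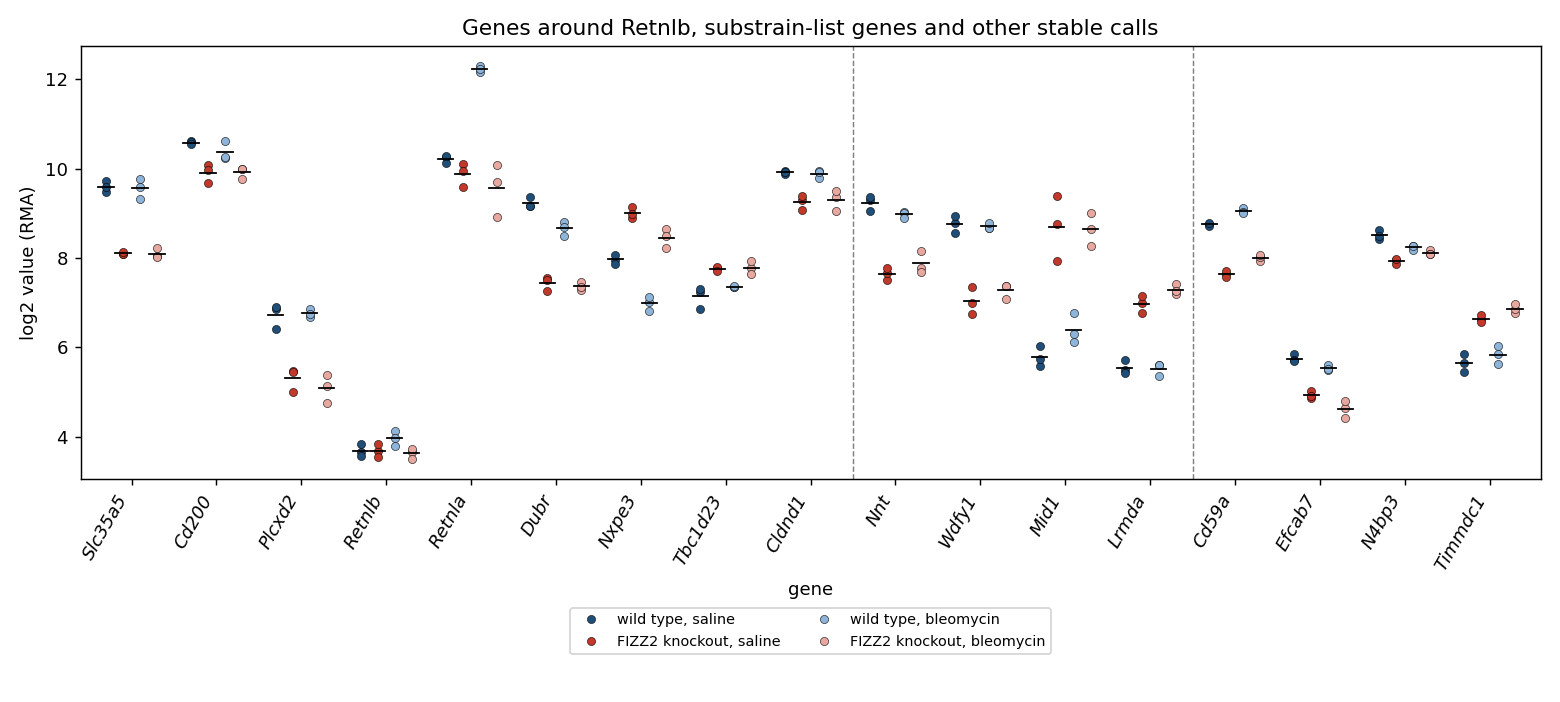
Log2 signal (vertical axis) on each array for genes around Retnlb, genes of the strain-linked list and 4 further genes, separated by dashed lines; points are arrays, short lines are group means, and colours give genotype and treatment. Knockout and wild type arrays are apart in saline and bleomycin lungs for Dubr, Slc35a5, Nnt, Wdfy1, Mid1, Lrmda and Cd59a, whereas Retnlb is dim on all arrays.

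A further group of calls held whichever array was left out. In total 19 of the 89 genes did so, and 16 were also called in each of 14 alternative fits. Besides the 8 genes with such calls given above, they include Cd59a, which encodes a membrane inhibitor of the complement attack complex. Cd59a was at 8.76, 8.72 and 8.78 in wild type and 7.65, 7.71 and 7.57 in knockout lungs, 2.16-fold lower (-1.11 ± 0.07, limma adjusted p = 9.75e-06) and -1.05 after bleomycin. Efcab7, a gene of primary cilium signalling, was lower by -0.82 ± 0.10 (adjusted p = 0.00206), and Timmdc1, an assembly factor of respiratory complex I on chromosome 16 outside the 10 Mb window, was higher by 0.99 ± 0.12 (adjusted p = 0.00206); both were called alike after bleomycin. Timmdc1, N4bp3, Evi2a and Ptpro lie outside the 15 largest changes each way and were named for their kept calls, after their values were seen. N4bp3 was lower by -0.59 ± 0.07 (adjusted p = 0.00317) but was not called after bleomycin (-0.12, adjusted p = 0.297). Among rises, Pla2g7, the secreted phospholipase that inactivates platelet-activating factor, was at 6.37, 5.92 and 6.35 against 7.54, 7.19 and 7.44 (1.18 ± 0.13, adjusted p = 0.000991). Cd300lb, an activating receptor of myeloid cells, was higher by 1.06 ± 0.12 (adjusted p = 0.00132), Evi2a by 0.67 ± 0.10 and the tyrosine phosphatase Ptpro by 0.59 ± 0.08. None of these 4 rises was called higher after bleomycin, and Pla2g7 was called lower there (-0.44, adjusted p = 0.0325).

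The other falls were more varied. Camk2b, a calcium-dependent kinase subunit (-0.79 ± 0.11, limma adjusted p = 0.00588), Rab4a, a GTPase of endosome recycling that was named after its values were seen (-0.73 ± 0.10, adjusted p = 0.00733), and Adamts9, a secreted protease that cleaves proteoglycans (-0.92 ± 0.12, adjusted p = 0.00417), kept their calls whichever array was left out. The probe sets of Adamts9 disagreed, at -0.92, -0.28 and 0.36, and their mean did not pass (adjusted p = 0.341). B4galt4, a galactosyltransferase (-0.85 ± 0.12, adjusted p = 0.00733), missed the threshold without knockout replicate 3 (adjusted p = 0.0506). The kinase gene Map3k6 (-1.15 ± 0.18, adjusted p = 0.0133) lost its call without wild type replicate 2 or knockout replicates 1 or 2, with adjusted p up to 0.073. Tmem267 (-0.98 ± 0.17) and Banp, a nuclear DNA-binding protein (-0.76 ± 0.13), lost theirs without 5 of the 6 arrays, with adjusted p up to 0.113 and 0.151; Tmem267 kept it only without wild type replicate 2 and Banp only without wild type replicate 1.

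Neutrophil genes were higher in knockout lungs. Of 32 measured genes of a neutrophil list, 8 rose (25%, against 0.297% of all genes) and none fell, with a median difference of 0.43 against -0.02 for all genes, and 26 of 32 had a positive difference. The 8 were S100a8 and S100a9, which form calprotectin; Stfa2l1, a stefin; the cytokine Il1b; Csf3r, the receptor for granulocyte colony-stimulating factor; the collagenase Mmp8 and gelatinase Mmp9; and Clec4d, a C-type lectin receptor. S100a8 was at 10.90, 10.91 and 10.50 in wild type and at 12.21, 11.62 and 12.25 in knockout lungs (1.26 ± 0.20, limma adjusted p = 0.0153). S100a9 was at 10.57, 10.49 and 10.06 against 11.95, 11.19 and 12.09 (1.37 ± 0.25, adjusted p = 0.0325). Knockout replicate 2 was the lowest knockout array for both, and still above every wild type array. The call of S100a9 was lost with trend and robust eBayes (adjusted p = 0.0706).

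Stfa2l1 was at 4.34, 4.37 and 4.12 against 6.54, 5.50 and 6.35 (1.86 ± 0.27, adjusted p = 0.00895). It was dim in wild type lungs, and stefin genes have near-identical copies that a probe set may not separate. Il1b was at 6.78, 6.66 and 6.63 against 8.15, 7.84 and 8.68, 2.90-fold higher (1.53 ± 0.23, adjusted p = 0.0111). Clec4d differed by 1.25 ± 0.18 (adjusted p = 0.00733), Csf3r by 0.93 ± 0.14 (0.0128), Mmp9 by 0.84 ± 0.14 (0.0163) and Mmp8 by 0.75 ± 0.13 (0.0208). The list's mean log2 signal was 6.67 to 6.82 on wild type arrays and 7.16 to 7.51 on knockout arrays, highest on knockout replicate 3.

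Other textbook neutrophil genes did not pass. Slfn4 (1.22, adjusted p = 0.0507) and Clec4e (0.86, 0.0664) lay apart between genotypes, as did G0s2 (0.59, 0.0801). Cxcr2, the main neutrophil chemokine receptor, overlapped (0.27, 0.547). The granule genes of immature neutrophils Mpo (-0.04) and Elane (0.01) were dim in both groups, and Camp and Ngp were high only on knockout replicate 3 (6.69 and 6.97, against 4.30 to 4.76 and 4.70 to 5.48 on the other saline arrays). The number of neutrophil genes called was 0 without knockout replicate 3, 3 without knockout replicate 1 or wild type replicate 3, 5 without wild type replicate 2 and 4 in a fit on the saline arrays alone. Without knockout replicate 3 the adjusted p of the 8 genes was between 0.0506 and 0.137.

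**Figure D3:**
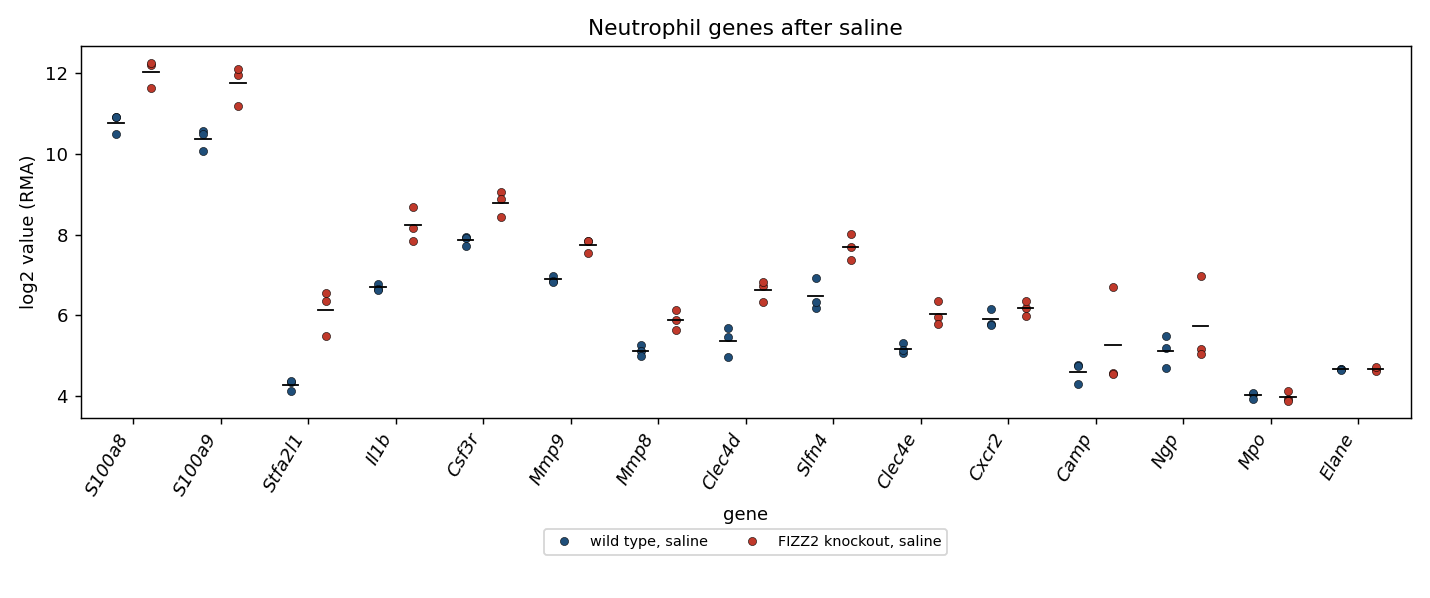
Log2 signal (vertical axis) of 15 neutrophil genes on the 3 wild type and 3 knockout saline arrays; points are arrays and short lines are group means. The knockout arrays lie above the wild type arrays for S100a8 to Clec4e from the left, and Camp and Ngp are raised on 1 knockout array.

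Several genes of monocytes and macrophages, or of white cells in general, were called higher with smaller differences. From a list of 19 monocyte and interstitial macrophage genes, 2 rose (10.5%, against 0.297% of all genes): Nr4a1, needed for patrolling monocytes and also an immediate early gene, and the fractalkine receptor Cx3cr1 (0.52 ± 0.09, limma adjusted p = 0.0296). The call of Cx3cr1 was lost whichever array was left out (adjusted p 0.0636 to 0.128) and as the mean of its probe sets (0.0897). Ccr2 (0.82, 0.0782) and Cd68 (0.46, 0.114) did not pass, and Csf1r (0.14), Adgre1 (0.20) and Lyz2 (0.03) were close between genotypes. Outside the lists, and named after their values were seen, Cybb, the phagocyte oxidase subunit, was higher by 0.48 (adjusted p = 0.00733), the Fc receptor chain Fcer1g by 0.50 (0.0428), the beta-glucan receptor Clec7a by 0.69 (0.0332) and the leukocyte surface genes Cd53 and Cd52 by 0.54 and 0.50. Of these, Cybb lost its call without knockout replicate 3 (adjusted p = 0.0506), Cd52 without each array but wild type replicate 2, and the other 3 whichever array was left out. The call of Cd53 was also lost as the mean of its probe sets (adjusted p = 0.152). Fcer1g was called in the opposite direction after bleomycin (-0.40, adjusted p = 0.0148). None of 16 alveolar macrophage, 13 dendritic cell, 17 T cell, 15 NK or 17 B and plasma cell genes passed. Of the 17 B and plasma cell genes, 15 had a positive difference (median 0.35, against -0.02 for all genes), and their mean log2 signal was 7.88 to 8.09 on wild type and 8.18 to 8.69 on knockout arrays, highest on knockout replicate 1. The part of these cells in the neutrophil and macrophage calls was not tested.

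Immediate early genes were the other group with many rises. These are transcription factor and signalling genes that cells switch on within minutes of a stimulus. Of 26 measured, 7 rose (26.9%, against 0.297% of all genes) and none fell, with a median difference of 0.38 against -0.02 for all genes. Egr1, a zinc finger transcription factor, was at 10.27, 9.32 and 9.03 in wild type and at 11.11, 11.33 and 11.59 in knockout lungs, 3.50-fold higher (1.81 ± 0.28, limma adjusted p = 0.0128). Fos, a subunit of AP-1, was at 10.09, 8.85 and 8.78 against 10.89, 11.12 and 10.65 (1.64 ± 0.31, adjusted p = 0.0351). Wild type replicate 1 was nearer to the knockout arrays than the other wild type arrays for both genes, and did not reach them.

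Nr4a1 was higher by 1.46 ± 0.25 (adjusted p = 0.0249), the matricellular growth factor gene Ccn1 by 1.20 ± 0.20 (0.0193), Zfp36, which destabilises cytokine mRNAs, by 0.76 ± 0.13 (0.0237), the antiproliferative gene Btg2 by 0.74 ± 0.11 (0.00895) and the endothelial factor Klf2 by 0.44 ± 0.09 (0.0461). Junb (0.73, adjusted p = 0.0811), Dusp1 (0.76, 0.102) and Atf3 (0.84, 0.0801) lay apart between genotypes without passing, and Jun overlapped (-0.04 ± 0.10). Ccn1 as the mean of its probe sets did not pass (adjusted p = 0.125), and trend and robust eBayes ended the calls of Fos (0.113) and Nr4a1 (0.0579). The list's mean log2 signal was 8.92 to 9.18 on wild type and 9.34 to 9.58 on knockout arrays. The count of calls was 0 without knockout replicate 2 or 3, 1 without wild type replicate 2, 3 without wild type replicate 3 or knockout replicate 1, and 0 in the fit on the saline arrays alone.

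Circadian clock genes had 2 calls among 20 measured (10%, against 0.489% of all genes), both lower. Cry1, a repressor of the clock's transcription factors, was at 7.38, 7.19 and 7.12 in wild type and 6.62, 6.54 and 6.68 in knockout lungs (-0.62 ± 0.09, limma adjusted p = 0.00895). Its call was lost without knockout replicate 2 (adjusted p = 0.0549). Ciart, a further clock repressor, was at 7.85, 7.79 and 7.53 against 7.18, 6.85 and 7.11 (-0.68 ± 0.13, adjusted p = 0.0442), and its call was lost without each array but wild type replicate 3 (adjusted p up to 0.182). Per2, a repressor, and Arntl, the activator that works against these repressors, missed the threshold on opposite sides (-0.86, adjusted p = 0.0552, and 0.63, adjusted p = 0.079). Per1 (-0.35), Per3 (-0.07), Dbp (-0.12) and Nr1d1 (0.30) did not pass.

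The promoters of the called clock genes are shown because both hold the letters to which the clock's activators are known to bind. The windows are the 250 bases before the gene start from RefSeq, build GRCm38.p6, printed on the gene's own strand, and capitals mark the matches. CACGTG, the E-box, was searched on both strands and occurs in 6.02% of 32851 promoters of that length. Ciart (chr3:95882229-95882478, minus strand) holds 3 matches, starting 116, 58 and 44 bases before the gene start, and Cry1 (chr10:85185055-85185304, minus strand) holds 1, starting 60 bases before it. Of the 7 called immediate early genes, 6 matched the promoter table and Egr1 did not. None of the 6 holds CACGTG. The cAMP response element TGACGTCA, found in 1.55% of promoters, occurs in 1, Btg2 (chr1:134079156-134079405, minus strand), 166 bases before its start, and the CArG box, found in 1.47%, in 1, Zfp36. A match describes the sequence and shows no binding. A miss does not show that a gene lacks the element, because variant letters and bases outside the window were not searched.
Ciart: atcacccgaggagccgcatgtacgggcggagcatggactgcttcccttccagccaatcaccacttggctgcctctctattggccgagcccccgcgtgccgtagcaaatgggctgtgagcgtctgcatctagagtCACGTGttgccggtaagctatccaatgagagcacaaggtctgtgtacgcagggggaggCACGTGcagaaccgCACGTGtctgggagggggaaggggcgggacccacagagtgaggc
Cry1: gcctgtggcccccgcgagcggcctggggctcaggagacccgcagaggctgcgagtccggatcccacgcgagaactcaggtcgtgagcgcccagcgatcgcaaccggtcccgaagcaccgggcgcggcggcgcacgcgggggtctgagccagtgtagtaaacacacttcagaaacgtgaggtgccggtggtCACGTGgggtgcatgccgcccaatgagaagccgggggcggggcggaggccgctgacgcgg
Btg2: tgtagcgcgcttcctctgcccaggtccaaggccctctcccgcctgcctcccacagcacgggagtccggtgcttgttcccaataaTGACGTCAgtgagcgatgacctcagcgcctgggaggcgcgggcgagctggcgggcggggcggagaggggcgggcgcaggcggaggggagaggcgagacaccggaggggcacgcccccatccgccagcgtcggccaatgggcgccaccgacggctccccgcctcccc

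Fkbp5, a co-chaperone of the glucocorticoid receptor and a standard glucocorticoid target, was among the largest falls. It was at 8.85, 9.83 and 8.90 in wild type and 7.36, 7.96 and 8.15 in knockout lungs (-1.37 ± 0.27, limma adjusted p = 0.0448). It was the only call among 15 glucocorticoid-responsive genes (6.67%, against 0.489% of all genes), all 15 of which had a negative difference (median -0.19). Zbtb16 (-1.15, adjusted p = 0.186) and Tsc22d3 (-0.60, 0.186) were lower on each knockout array without passing. The list's mean log2 signal was 9.50 to 9.94 in wild type and 9.22 to 9.43 in knockout lungs, highest on wild type replicate 2, the array that stood apart in RNA quality. Without that array the difference of Fkbp5 was -1.05 (adjusted p = 0.12), and its call was lost whichever array was left out (adjusted p up to 0.206) and as the mean of its probe sets (-0.65, adjusted p = 0.0826) or with trend and robust eBayes (0.0936). Fam107a, an actin-associated stress gene (-1.31 ± 0.26, adjusted p = 0.0495), was also highest on that array and was -0.96 without it (adjusted p = 0.0988); it kept its call without wild type replicate 3 but not without any other array, and lost it with trend and robust eBayes (0.0922). The part of RNA quality in these falls was not tested. After bleomycin Fkbp5 was again lower, by -1.62 (adjusted p = 0.00159).

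**Figure D4:**
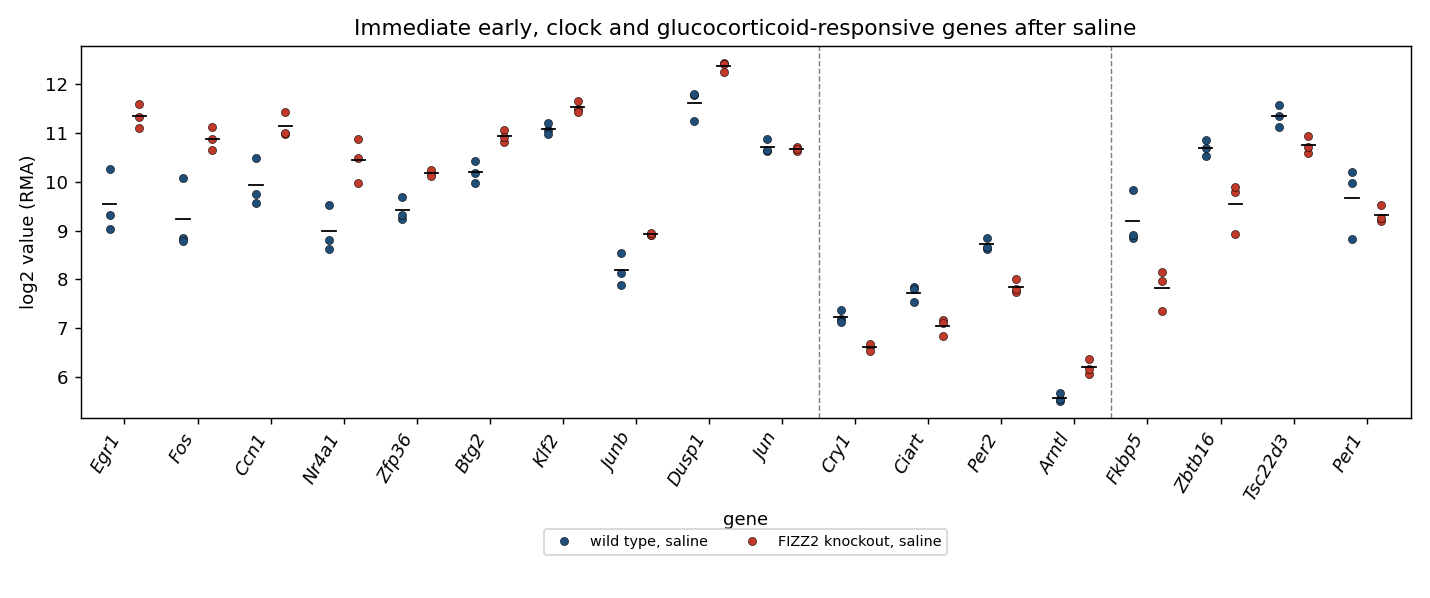
Log2 signal (vertical axis) of immediate early, clock and glucocorticoid-responsive genes, separated by dashed lines, on the 3 wild type and 3 knockout saline arrays; points are arrays and short lines are group means. Wild type replicate 1 is the highest wild type point for Egr1 (10.27) and Fos (10.09), and wild type replicate 2 the highest for Fkbp5 (9.83).

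Few matrix genes were called in uninjured lung. Of 23 collagen chains, 1 was called (4.35%, against 0.489% of all genes), the fibrillar Col3a1, at 12.33, 12.30 and 12.36 in wild type and 11.85, 11.85 and 11.64 in knockout lungs (-0.55 ± 0.10, limma adjusted p = 0.0303). Its call was lost whichever array was left out (adjusted p 0.0802 to 0.137), and 18 of the 23 chains had a negative difference (median -0.19). In 9 of the 23 all knockout values were below all wild type values, a larger share than the 9.45% of all genes. The list's mean log2 signal was 8.93 to 9.01 on wild type and 8.76 to 8.79 on knockout arrays. Col1a1 (-0.40, adjusted p = 0.514), Col1a2 (-0.41, 0.241) and Col5a2 (-0.58, 0.144) did not pass. Serpinh1, the collagen chaperone of the endoplasmic reticulum, was lower by -0.55 ± 0.08 (adjusted p = 0.0123), and Fkbp14, a prolyl isomerase that acts on procollagen, by -0.61 ± 0.10 (adjusted p = 0.0209); both were named after their values were seen. Serpinh1 lost its call without knockout replicate 1 or 3 (adjusted p up to 0.0604), Fkbp14 without knockout replicate 1, 2 or 3 (up to 0.115). As the mean of all probe sets, Col3a1 (adjusted p = 0.0768) and Fkbp14 (0.149) did not pass. Col3a1, Serpinh1 and Fkbp14 were also called lower after bleomycin, by -0.49, -0.44 and -0.83. Of 24 listed matrix proteases and inhibitors, Mmp8 and Mmp9, which are also in the neutrophil list, passed (8.33%, against 0.489% of all genes). Mmp2 was at -0.66 (adjusted p = 0.0801). The protease Adamts9, called lower above, is not in that list. None of 28 matrix glycoproteins or 23 TGF-beta and growth factor genes passed.

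Of 45 gene lists, 33 had no member called. They include the epithelial lists (17 alveolar type 2, 16 alveolar type 1, 19 club and 17 ciliated cell genes), 24 vascular endothelial genes, 25 interferon-stimulated genes, and 23 genes of type 2 cytokines and alternative activation, the setting in which resistin-like proteins are induced (median -0.06). The 26 cell cycle genes had a median of -0.22, with 24 of them negative, where 10248 of all 18194 genes were negative. The 23 heat shock genes had a median of -0.17, with 20 negative. No cell cycle or heat shock gene passed. Lists of tissues that can be dissected with lung varied between arrays. Brown fat genes had a mean of 5.41 to 5.54 in wild type and 5.61 to 6.73 in knockout lungs, set by knockout replicate 1, where Ucp1 was 8.83 against 4.36 to 5.68 elsewhere. All 9 brown fat and all 12 adipocyte genes had positive differences (medians 0.39 and 0.47), and 15 of 19 cardiac genes did (median 0.32); no gene of these lists passed. Their part in the called genes was not tested.

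The bleomycin arrays are different samples, so the sign and size of a difference there are a separate reading. The calls are not independent, because the fit of all saline and bleomycin arrays gives each gene the same SE under both treatments. Genes called after saline with a small SE are more easily called after bleomycin too. The shares called again are therefore only a description. Of the 35 falls, 26 were called lower after bleomycin as well (74.3%, against 7.89% of all genes), and all 35 were negative there, against 44.4% of all genes. Of the 54 rises, 17 were called higher (31.5%, against 7.52%), 6 were called lower and 31 were not called, and 34 of 54 were positive, against 55.6% of all genes. The difference between the genotype effects under both treatments, an interaction in the same limma fit, was called for 26 of the 54 rises and 2 of the 35 falls, against 5.02% of all genes. These genes were chosen for a saline difference and the interaction uses the same saline arrays, so the shares are a description.

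Of the neutrophil calls, S100a9 (1.27), S100a8 (0.81), Mmp9 (0.64) and Csf3r (0.59) were called higher again after bleomycin, Mmp8 was called lower (-0.79), and Stfa2l1, Clec4d and Il1b were not called. Of the immediate early calls, Nr4a1 (1.22) and Klf2 (0.49) were called higher again, while Egr1 (0.07), Fos (-0.07), Ccn1 (0.03), Zfp36 (0.12) and Btg2 (0.27) were not called. Ifitm6, an interferon-induced membrane protein gene of myeloid cells, was higher by 1.15 ± 0.16 after saline (limma adjusted p = 0.00733, 0.0506 without knockout replicate 3) and 1.04 after bleomycin. The count of saline calls that recurred in the same direction was 43 in all and fell to 15 to 28 without wild type replicates 1 or 2 or any one knockout array, along with the number of saline calls.

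**Figure D5:**
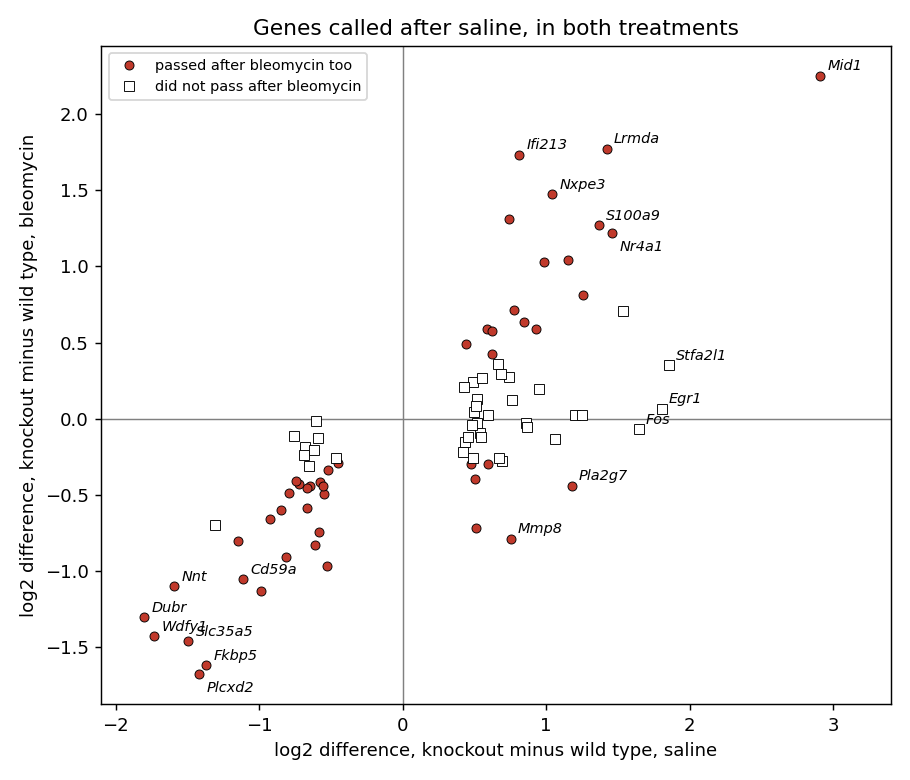
Log2 difference between knockout and wild type lungs after saline (horizontal axis) and after bleomycin (vertical axis) for the 89 genes called after saline; filled circles also passed after bleomycin, open squares did not. All 35 falls lie below 0 on both axes, whereas the 54 rises spread from -0.79 for Mmp8 to 2.25 for Mid1 after bleomycin.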

How the data were processed

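The log2 values per probe set were deposited by the authors as an RMA summary. Tools named in the submitters' processing notes are RMA, affy and limma; versions, settings and a genome build are not given in the sources used here. Detection calls were not used here. Of 45101 probe sets, the platform annotation gives 34958 a single gene, 932 several and 9211 none; symbols of 34754 were updated by Entrez identifier, and 9012 of the 18194 genes have more than 1 probe set.

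A linear model with 1 mean for each of the 4 groups was fitted to the 12 arrays in limma (version 3.58.1, under R 4.3.3 and with statmod 1.5.0), with no filter on dim genes and no minimum fold, followed by eBayes (8 residual, 4.86 prior degrees of freedom). Fold changes, SEs and Benjamini-Hochberg adjusted p-values come from this fit; SDs are over 3 arrays, whose number limits the precision. The procedure was also run on simulated data with independent noise and no quality differences between arrays. That run cannot speak to the shifts seen when single arrays were left out. The alternatives are given in the closing section. Gene order around Retnlb and promoters came from RefSeq GRCm38.p6 tables, used for names, distances and sequence.

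Named genes were the 15 largest rises and falls among calls whose arrays did not overlap, without clone names, plus the resistin family, calls near Retnlb, the strain and sex-linked lists, and up to 4 members per list with textbook markers that did not pass. Other genes were named after their values were seen. The 45 lists hold 827 distinct names, of which 759 were measured. The members and lists were chosen with earlier results of these data known, so the shares called in the lists are only a description. Plots were made in Python 3.11.15 (matplotlib 3.10.9).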

Additional observations from a re-analysis of the deposited data

Results flagged for a closer look

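For several of the genes named, the genotype difference after bleomycin was not the same as after saline, by limma's interaction test with Benjamini-Hochberg adjustment over all genes (5.02% of all genes passed). The test uses the saline arrays for which many of the genes were named. Among genes called after saline, the difference after bleomycin minus that after saline was -1.74 for Egr1 (adjusted p = 0.0286), -1.71 for Fos (0.0412), -1.62 for Pla2g7 (0.0013), -1.54 for Mmp8 (0.0018), -1.51 for Stfa2l1 (0.0418), -1.22 for Clec4d (0.0172), -1.20 for Cd300lb (0.00337), -1.17 for Ccn1 (0.0351), -0.97 for Clec7a (0.0111), -0.93 for Evi2a (0.0041), -0.90 for Fcer1g (0.00507), -0.63 for Cd53 (0.0329), -0.57 for Ptpro (0.0154), -0.54 for Cx3cr1 (0.0352), -0.53 for Cybb (0.00982) and 0.46 for N4bp3 (0.0264). Of these, Pla2g7, Mmp8 and Fcer1g were called higher after saline and lower after bleomycin. The others were not called after bleomycin.

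Among named genes not called after saline, limma's interaction was -2.33 for Retnla (adjusted p = 0.00298), -1.37 for Junb (0.00698), -1.30 for Clec4e (0.0145), -1.27 for Col1a1 (0.0205), -1.05 for Mmrn1 (0.034), -1.02 for Cd68 (0.0048), -0.997 for Ccr2 (0.0404), -0.996 for Col5a2 (0.019), -0.73 for Adgre1 (0.0359), 0.54 for Jun (0.0479) and 0.71 for G0s2 (0.0427).

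Outside the genes tested, 19 probe sets paired with no gene or with several were called between the saline groups, 14 higher and 5 lower in knockout lungs, with adjustment over all 45101 probe sets.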

How the results depend on the processing

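The count of 89 genes was 37 in a fit on the 6 saline arrays alone (18 higher, 19 lower), 1105 with array weights (520 higher, 585 lower) and 24 with a 2-fold minimum. Leaving out single saline arrays gave 24 to 58 genes, 10 to 33 higher and 14 to 36 lower. Within 10 Mb of Retnlb the count was 20 with array weights and 4 to 5 without single arrays. Of the neutrophil genes, 4 were called in the saline-only fit, 13 with array weights and 0 to 8 without single arrays; of the immediate early genes, these were 0, 13 and 0 to 7. Calls that recurred after bleomycin numbered 216 with array weights and 15 to 32 without single arrays. The array weights ran from 0.339 for wild type replicate 2 to 5.13 for wild type replicate 1. The saline-only and leave-one-out fits have fewer samples, and the cause of these shifts was not tested. The near-zero difference of Retnlb turned its sign with array medians subtracted (-0.00304) and ran from -0.069 to 0.078 without single arrays, never past the threshold. Dropping genes with a mean below 5 left 95 calls, array medians subtracted 87, a repeated quantile normalization 93, trend and robust eBayes 93, the mean of all probe sets 84, and all probe sets tested singly 79. The replicate block gave 76 calls, 70 of them among the 89. Same-numbered saline arrays correlated at r = 0.13, -0.30 and -0.22 in their deviations from the group means. So few values cannot show whether arrays of 1 number share a batch or pairing.

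With 3 arrays a group, a gene that missed the threshold is not shown to be equal between genotypes. The signal gives no level for genes as dim as Retnlb. The calls with an adjusted p near the threshold hold for these 6 arrays in the shared fit of all 12, and 19 of the 89 kept their call whichever array was left out.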
